A study of Homo sapiens with 3 samples.

Results

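The miRNAs held by Argonaute2 (Ago2) in untreated Hep G2 cells were measured on 1 array. Members were the human miRNA names of that array for which at least 1 probe lay well above background in more than 50% of its spots. This held for 168 of the 851 human names on the array, or 19.7% of the names examined, and 683 names were not detected. Hep G2 is a cell line from a human liver tumour. In the study, RNA bound to Ago2 was recovered by immunoprecipitation (Ago2-IP) from cells that were not transfected and from cells given a duplex RNA mimic of miR-195 or miR-497 (5 nM, collected after 24 hours). An Agilent human miRNA array was hybridised with 10 ng of Cy3-labelled RNA from each fraction, all 3 arrays being on 1 slide. The non-treated group, like each transfected group, was therefore 1 array, so no difference between groups was tested. Errors below are the spread between the replicate spots of 1 array (spot SD), a technical error that says nothing of the spread between cultures. The spot SD is that of single spots, and not the smaller error of their mean. No array of the total RNA before immunoprecipitation was analysed here, so the values are levels in the Ago2 fraction and not a share of each miRNA that is bound.

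Ago2 is the Argonaute protein that can cut its target, and with a bound guide RNA it forms the core of the silencing complex, RISC. The complex finds messenger RNAs chiefly by pairing with the seed, the bases near the 5′ end of the guide, so miRNAs with one seed form a family with largely shared targets. Most miRNA precursors give one strand that is kept and one that is mostly lost, which older nomenclature marked with a star. Many miRNA genes lie in clusters that are transcribed together, and the miR-17-92a cluster is known for driving proliferation in tumours.

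The mature sequences that carry the profile are shown 5′ to 3′ with the seed, bases 2 to 8, in capitals. They were read from RefSeq on GRCh38.p14, and 741 of the 851 array names (144 of the 168 detected) matched an entry. In that build miR-21 lies at chr17:59841273-59841294 on the plus strand, miR-363 at chrX:134169382-134169403 and miR-20b at chrX:134169850-134169872 on the minus strand, miR-17 at chr13:91350618-91350640 on the plus strand and miR-195 at chr17:7017667-7017687 on the minus strand. The first set shows miR-21, the brightest name, and the other detected name with its seed, which had unlike bases outside it.
miR-21: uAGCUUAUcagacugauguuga
miR-590-5p: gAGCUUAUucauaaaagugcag
The next set shows members of the miR-17-92a, miR-106b-25 and miR-106a-363 clusters, grouped by seed, since near-identical sequences from different chromosomes stood together among the brightest names.
miR-20b: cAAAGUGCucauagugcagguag
miR-17: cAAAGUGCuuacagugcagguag
miR-20a: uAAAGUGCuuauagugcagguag
miR-106b: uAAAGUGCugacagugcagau
miR-93: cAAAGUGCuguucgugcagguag
miR-363: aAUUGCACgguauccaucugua
miR-92a: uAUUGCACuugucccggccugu
miR-19b: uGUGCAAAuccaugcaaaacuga
miR-19a: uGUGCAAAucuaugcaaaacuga
miR-18b: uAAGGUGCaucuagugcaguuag
The miR-15/16 family is shown because it holds miR-195 and miR-497, the miRNAs that the study introduced.
miR-16: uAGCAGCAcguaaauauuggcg
miR-15b: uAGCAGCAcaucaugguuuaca
miR-15a: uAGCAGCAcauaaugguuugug
miR-195: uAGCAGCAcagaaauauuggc
miR-497: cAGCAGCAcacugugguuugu
The last set shows the names that checked the cell type, 3 of the liver and 1 of blood cells.
miR-192: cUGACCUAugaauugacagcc
miR-215: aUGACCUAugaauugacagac
miR-122: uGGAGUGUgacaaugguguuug
miR-142-3p: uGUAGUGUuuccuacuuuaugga

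The Ago2 fraction was dominated by few miRNAs. The signal of a name was the sum over its probes of the mean background-subtracted intensity, in arbitrary units, and shares are of the 238661 units summed over all detected names. miR-21, a miRNA with raised levels in many tumours, gave 71328 units (spot SD 5548, 15 spots of 2 probes), or 29.9% ± 1.65 of the signal. This was 4.09-fold the signal of the second name and 358-fold the median of detected names, which was 199 units. It was followed by miR-363 with 17456 units (7.31%), miR-19b with 16778 (7.03%), miR-20b with 15278 (6.40%) and miR-17 with 14978 (6.28%). The order of these 4 depended on the probe summary, and with the brightest probe of each name it was miR-19b (8.42%), miR-17 (6.91%), miR-363 (5.61%) and miR-20b (4.66%). These 5 names, the only ones above 10000 units, held 56.9% ± 1.09 of the signal, and the 4 brightest held 50.6% ± 1.24. Different miRNAs are read by different probes, whose affinities differ, so the order is one of brightness and not of molecule number.

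Below the leading names the signal fell away steeply, down to 11.1 units. The 10 brightest names held 67.6% ± 0.83 of the signal, the 20 brightest 79.1% ± 0.54 and the 50 brightest 93.1% ± 0.19. Between 1000 and 10000 units there were 32 names with 32.7% of the signal, between 100 and 1000 units there were 72 with 9.23%, and the 59 names below 100 units held 1.13%. With miR-21 set aside, 8 names held 50% of the remaining signal. The undetected names had a median of -1.43 units, 380 of the 683 lay below 0, and their positive values added up to 0.918% of all positive signal. None of the 88 viral names on the array was detected, and no spot was saturated.

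**Figure D1:**
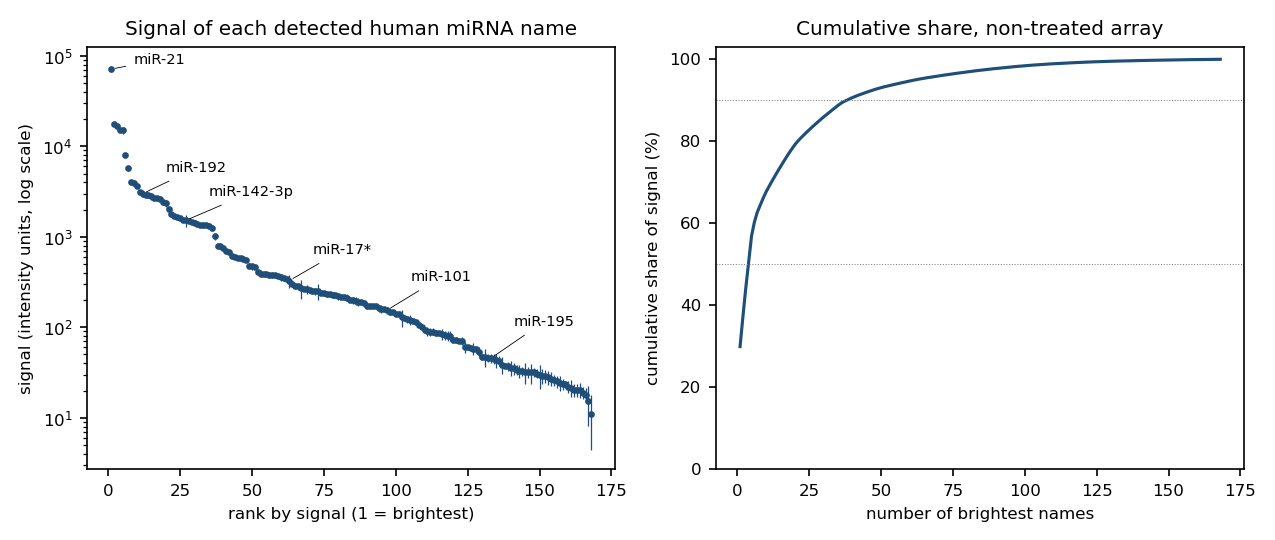
Left, signal of each of the 168 detected human miRNA names on the non-treated array (intensity units, log scale) against rank, with bars of 1 spot SD. Right, cumulative share of the signal in percent against the number of brightest names, with dotted lines at 50% and 90%; 4 names reached the first line and 39 the second, and miR-21 stood 4.09-fold above the next name.

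The next 5 names were miR-20a (8110 units, spot SD 367), miR-16 (5713, spot SD 364), miR-92a (4037, spot SD 63.6), miR-15b (3937, spot SD 178) and miR-22 (3659, spot SD 211). Ranks 11 to 20 were held by miR-106b (3122 units), miR-192 (3003), miR-29a (2910), miR-19a (2862), miR-103 (2796), miR-107 (2718), miR-320d (2690), miR-18b (2625), miR-130b (2436) and miR-29b (2352). Of the 19 steps between neighbours in this order, 7 were larger than the spot SD of the difference and 12 were not. In summed signal, miR-21 exceeded miR-363 by 53872 units (spot SD 5581), and the steps from miR-17 through miR-20a and miR-16 to miR-92a were also larger than their spot SD. The steps between miR-363 and miR-19b, miR-20b and miR-17, and miR-92a and miR-15b lay within their spot SD. So did every step from miR-106b down to miR-29b. miR-20b and miR-17 differed by 0.03 ± 0.14 in log2 signal (spot SD).

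Probes of one miRNA differ in length and affinity, and they disagreed more than spots did. Over the 108 detected names with at least 2 detected probes, the brightest probe exceeded the dimmest by a median of 3.70-fold. The widest gap was in miR-17, whose 3 probes gave 12098, 2587 and 294 units, a 41.2-fold range. miR-21 had probes of 50847 and 20481 units (spot SD 4481 and 3272). Each alone lay above the summed 17456 units of miR-363 (spot SD 602), but the dimmer one by less than its spot SD. The median coefficient of variation between spots was 9.40% over 282 detected probes, 5.05% in the 50 brightest names and 14.9% in the 50 dimmest detected ones. All probes were detected for 49 of the 50 brightest names, whereas a single probe carried the call in 47 of the 50 dimmest.

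**Figure D2:**
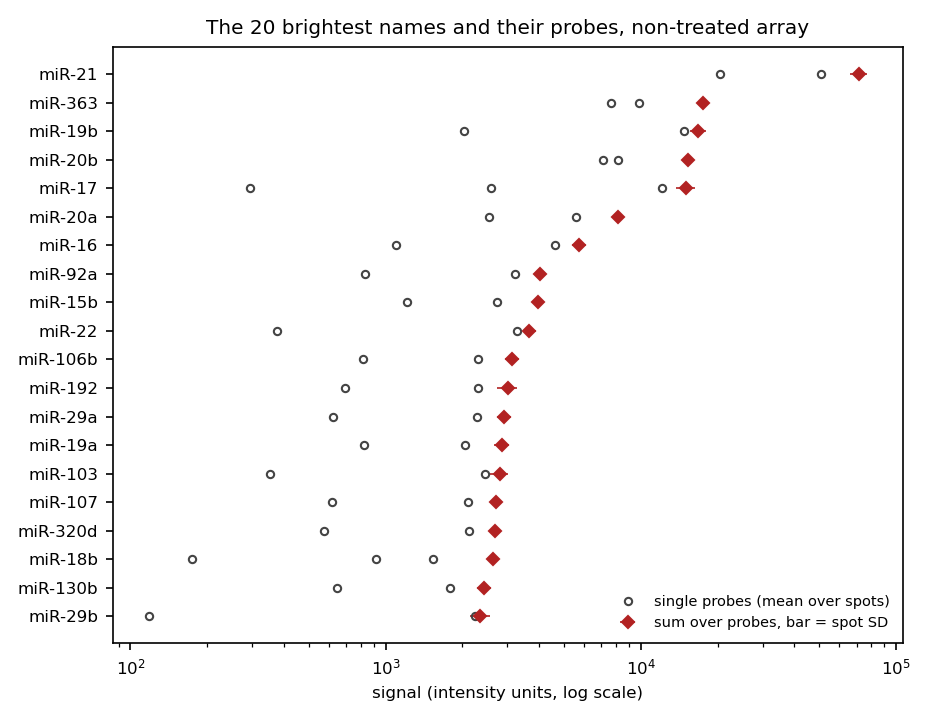
Signal in intensity units (log scale) of the 20 brightest names on the non-treated array, as the sum over probes with 1 spot SD (diamonds) and as the mean over spots of each probe (circles). Both probes of miR-21 lay above the summed signal of miR-363, the dimmer one by less than its spot SD, while the probes of miR-17 spread from 294 to 12098 units.

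Few seeds carried most of the signal. The matched detected names carried 104 seeds, against 611 on the array, and the 3 seeds with the most signal held 57.6% of it, the 5 first 70.5% and the 10 first 81.1%. The 22 seeds with 2 or more detected names covered 62 names and 88.5% of the signal. The seed of miR-21 held 30.1% ± 1.65, of which miR-590-5p (405 units) was a minor part, the family being 99.4% miR-21. The AAAGUGC seed, that of miR-17, came second with 17.9% ± 0.68, spread evenly enough that miR-20b held 35.7% of it, followed by miR-17, miR-20a, miR-106b and miR-93 (1314 units). miR-363, miR-92a, miR-25 (1342 units) and miR-32 (120 units) shared AUUGCAC and 9.62% ± 0.33 of the signal, and miR-19b and miR-19a shared GUGCAAA and 8.23% ± 0.50.

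The miR-15/16 family, whose targets include cyclins and BCL2, held 4.66% ± 0.20 of the signal through miR-16, miR-15b, miR-15a (1433 units) and miR-195 (45.3 units). The miR-29 family, known for repressing collagens, held 2.45% ± 0.13, with miR-29a at 2910, miR-29b at 2352 and miR-29c at 578 units. miR-103 and miR-107, which lie in introns of pantothenate kinase genes, held 2.31% ± 0.12 in nearly equal parts. miR-320d, miR-320c (1464 units) and miR-320b (1345 units) held 2.30% ± 0.07. miR-320a (392 units, named after its value was seen) was also detected, but without a matched sequence it was left out of the seed families. The let-7 family was chosen for mention after its values were seen and is known to repress RAS genes and HMGA2. It had 8 of its 9 names detected, against 19.7% of all human names, but held only 1.91% ± 0.08 of the signal. Its brightest member let-7a gave 1799 units and let-7b 37.0 units, and let-7c (12.6 units) was not detected.

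**Figure D3:**
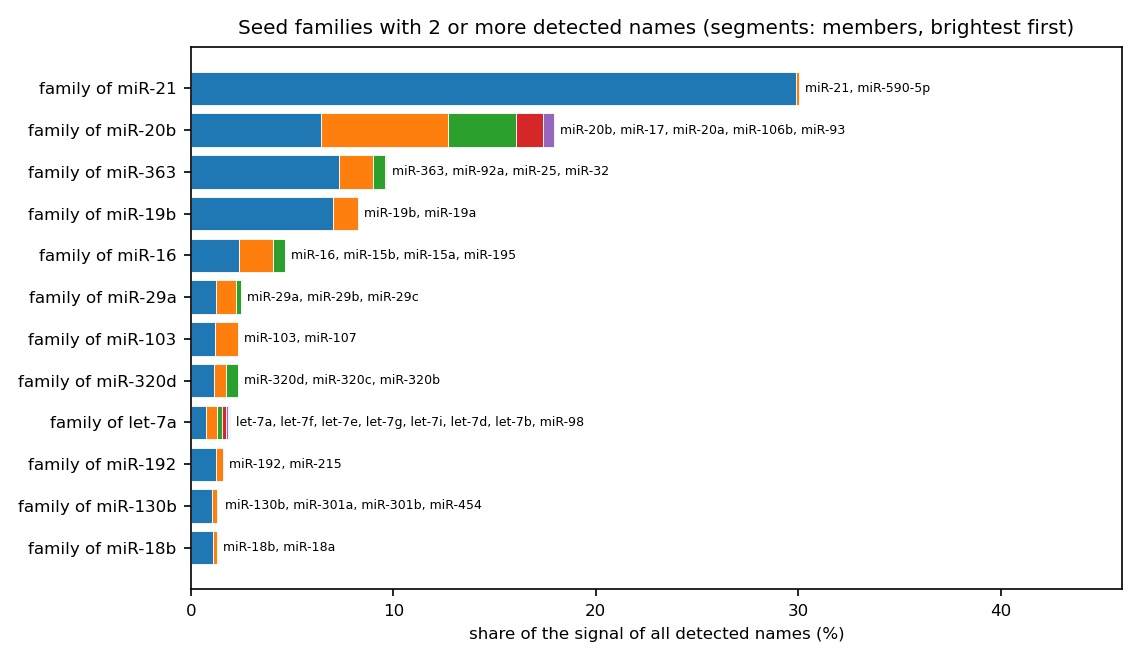
Share of the signal of all detected names, in percent, held by the 12 leading seed families with 2 or more detected names; segments stand for members, brightest first, and the names are given beside each bar. The family of miR-21 (30.1%) was nearly all 1 name, and that of miR-20b (17.9%) was built from 5.

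Near-identical sequences limit how far members of a family can be told apart by hybridisation. Among detected names with a matched sequence, 43 pairs differed at no more than 3 aligned bases. The 47 names in them held 45.2% of the signal, so their single values are uncertain. Signals of such pairs were often far apart even so. miR-19b was 5.86-fold brighter than miR-19a, and miR-18b 5.61-fold brighter than miR-18a (468 units), although each pair differs at 1 base. miR-26b (1600 units) exceeded miR-26a (269 units) 5.95-fold and miR-200b exceeded miR-200c 9.96-fold, each pair differing at 2 bases.

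By genomic position, the leading names came mostly from the miR-17-92a cluster on chromosome 13 and its paralogous miR-106a-363 cluster on chromosome X. The miR-106a-363 cluster had 8 of its 11 array names detected, which held 23.7% ± 0.75 of the signal. The miR-17-92a cluster had 10 of 12, with 20.03% ± 0.76. Of all human names, 19.7% were detected. miR-19b and miR-92a have a gene in each cluster and their 8.72% cannot be assigned to either. Without them, names of the miR-106a-363 cluster alone (6 of 9 detected) held 15.03% ± 0.51. Names of the miR-17-92a cluster alone (8 of 10) held 11.3% ± 0.57. This order rested on summing probes, since with the brightest probe of each name the shares were 11.4% ± 0.46 and 11.7% ± 0.67. Among names of the miR-106a-363 cluster alone, miR-363 and miR-20b were the brightest. miR-20b was 1.88-fold as bright as its chromosome 13 counterpart miR-20a. miR-363 was 4.32-fold as bright as miR-92a, which shares its seed, but this is no ratio between the chromosomes since miR-92a has a gene on both. miR-106a, a further member, was not analysed here, so the shares of the miR-106a-363 cluster leave it out. Its star strand was detected at 191 units. miR-20b of chromosome X and miR-17 and miR-20a of chromosome 13 differ from each other at 2 aligned bases. The part of each in the signal of the others was not tested, so the split between the clusters is uncertain beyond the spot SD.

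Another paralogue, the miR-106b-25 cluster within an intron of MCM7 on chromosome 7, had 4 of 6 names detected and held 2.43% ± 0.11. miR-106b (3122 units), miR-93 (1314 units) and miR-25 (1342 units) carried it, and miR-106b* gave 15.1 units. Counted once, the 3 paralogous clusters had 20 of 27 names detected, against 19.7% of all human names, and held 37.5% ± 1.03 of the signal. Together with miR-21 they held 67.4% ± 0.84 of the signal in 21 detected names.

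Further clusters were present at lower levels. The miR-15b-16-2 cluster held 4.06% and miR-15a-16-1 2.99%, both including miR-16, which has a gene in each. The miR-29a-29b-1 cluster held 2.31%, and miR-23b-27b-24-1 held 2.23%, with miR-27b at 2024 and miR-23b at 1639 units. In its paralogue miR-23a-27a-24-2, miR-27a gave 1008 and miR-23a 758 units. A cluster on chromosome X that holds miR-532, miR-188 and their neighbours had 10 of 13 names detected, against 19.7% of all human names. Every one of these 10 was dim, from 23.6 units for miR-532-3p to 340 units for miR-362-5p, and together they held 0.515%. Among them, miR-532-3p, miR-501-3p, miR-501-5p, miR-502-3p, miR-502-5p and miR-362-3p were each called from a single probe. miR-183 (793 units) and miR-96 (470 units) of the sensory-organ cluster miR-183-96-182 were detected, while miR-182 was not.

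Several clusters gave no detected name. The larger ones were the imprinted cluster at 14q32 (0 of 61 array names) and the primate-specific C19MC cluster at 19q13, known from placenta (0 of 44). For the others a count of 0 is little evidence at a background of 19.7%. They were miR-302-367 of pluripotent cells (0 of 10) and the cluster that holds miR-424 and miR-503 (0 of 8). Still smaller were that from miR-371 to miR-373 (0 of 5) and miR-143-145 of smooth muscle and fibroblasts (0 of 4). The last were miR-99a-let-7c (0 of 4) and miR-181c-181d (0 of 3). Over all listed clusters, 66 of 248 names were detected, against 19.7% of all human names, and held 54.0% of the signal.

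**Figure D4:**
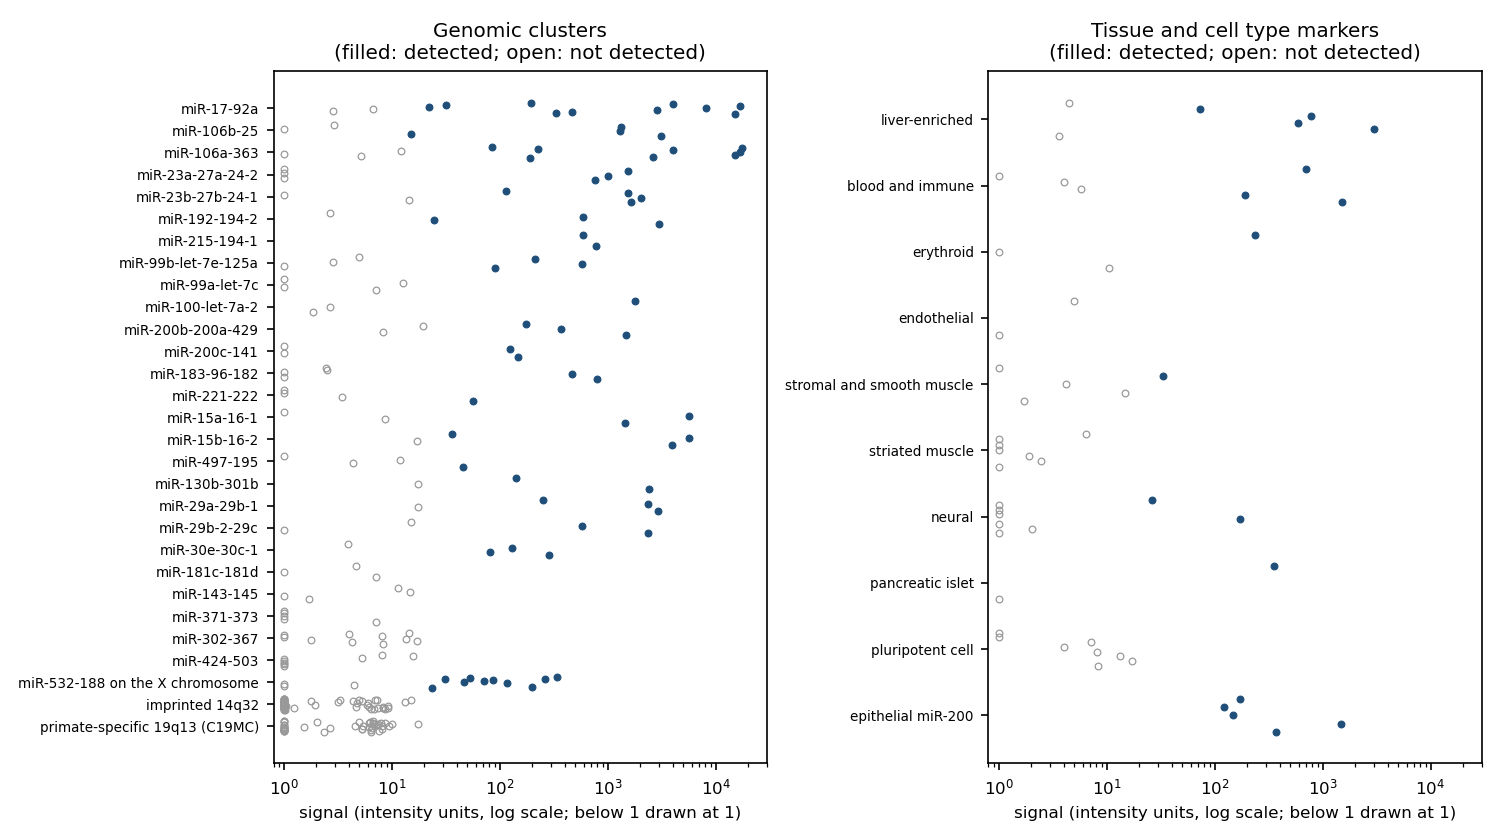
Signal of each array name (intensity units, log scale, values below 1 drawn at 1) in the listed genomic clusters (left) and cell type marker lists (right) on the non-treated array, filled where detected and open where not. The miR-17-92a and miR-106a-363 clusters reached above 10000 units, and no name of the 14q32 or C19MC clusters was detected.

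The label of a liver cell line was checked with liver-enriched miRNAs, of which 4 of 6 were detected, against 19.7% of all human names. miR-192 gave 3003 units (spot SD 268, rank 12), its seed relative miR-215 gave 787 units, miR-194, which has a gene beside each of them, gave 596 units, and miR-148a gave 72.5 units. miR-122, the dominant miRNA of hepatocytes, was not detected, at 3.62 units (spot SD 3.39), and neither was miR-885-5p (4.49 units). miR-122 was also undetected on the arrays of miR-195 and miR-497 transfected cells (-0.24 and 5.62 units). All 5 members of the miR-200 group, which keep epithelial cells epithelial by repressing ZEB1 and ZEB2, were detected, against 19.7% of all human names. They were led by miR-200b (1481 units) and miR-200a (369 units), with miR-429 at 173, miR-200c at 149 and miR-141 at 123 units. miR-200c and miR-141 were each called from a single probe. They differ at 2 bases from the brighter miR-200b and miR-200a, respectively.

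Of 41 array names that mark other cell types, 8 were detected (19.5%), a share near the 19.7% of all human names. In the blood and immune list 3 of 6 names were, with 1.01% ± 0.10 of the signal. miR-142-3p, a miRNA of blood cells, ranked 27 with 1521 units (spot SD 234), miR-142-5p gave 191 units and miR-146a, which NF-κB induces, gave 697 units, while miR-223 (5.74 units), miR-150 (4.04) and miR-155 (-7.11) were not detected. After transfection of miR-195 or miR-497, miR-142-3p was again detected, with 1244 and 397 units. Of the erythroid list miR-486-5p gave 237 units, but miR-451 (10.4 units) and miR-144 were not detected. In a bulk fraction, few cells with much of a miRNA and many cells with little of it cannot be told apart, and the source of these signals was not tested.

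The endothelial (0 of 2), striated muscle (0 of 7) and pluripotent cell (0 of 8) lists gave no detected name. In lists so short this is little evidence at a background of 19.7%. The neural list gave miR-128 (172 units) and miR-219-5p (26.0 units) of 8 names, the islet list gave miR-7 (356 units) and not miR-375, and the stromal and smooth muscle list gave miR-199a-3p (32.8 units) of 5. Names that were later tied to fragments of tRNA or rRNA held 0.128% of the signal, with miR-923_v12.0 at 287 and miR-720 at 18.0 units. The other 8 of 10 were not detected, so the part detected was near the 19.7% of all human names.

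The study chose 7 candidate tumour-suppressive miRNAs by a screen for growth suppression on overexpression and by lower levels in liver cancer lines than in normal liver. Those levels were of total RNA, so ranks within the Ago2 fraction are not set against them. Of the 7, 5 were detected in the Ago2 fraction, against 19.7% of all human names. They spanned the range of the profile, with miR-192 at rank 12, miR-15a at rank 30, miR-101 at 155 units (rank 97), miR-378 at 80.9 units (rank 118) and miR-195 at 45.3 units (spot SD 4.95, rank 133). miR-126 (-1.12 units) and miR-497 (11.8 units, spot SD 4.90) were not detected. The paper describes Hep G2 as a line that does not express miR-195 or miR-497. Here miR-195 was called from 1 of its 2 probes. Its family member miR-16, which differs from it at 2 of 21 aligned bases, gave 5713 units, and the part of miR-16 in the miR-195 signal was not tested.

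Strands named with a star made up 171 of the array names, of which 23 were detected (13.5%, against 21.3% of the 680 other names), and they held 0.986% ± 0.038 of the signal. The brightest, miR-17*, ranked 63 with 328 units (spot SD 54.5). It was followed by miR-29b-1* (251 units), miR-92a-2* (226), miR-92a-1* (195), miR-106a* (191), miR-21* (160), miR-505* (160), miR-500* (118), miR-24-1* (113) and miR-550* (100). Of 169 pairs of a star strand with its partner on the array, both were detected in 18, the partner alone in 68, the star strand alone in 4 and neither in 79.

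Where both strands were detected, the summed signal of the partner exceeded that of the star strand by a median of 33.1-fold, and over 10-fold in 13 pairs. These ratios set unlike probes, and often unlike numbers of probes, against each other, and are rough. miR-17 gave 14978 against 328 units for miR-17*, and miR-21 gave 71328 against 160 units for miR-21*, both probes of each star strand being detected. miR-19b-1*, the dim partner of miR-19b, was called from 1 of 4 probes (38.0 units), the others lying below 0. The star strand was the brighter one in 2 pairs, miR-505* (160 against 47.0 units) and miR-624* (81.9 against 42.8 units). The star strand alone was detected for miR-500*, miR-550*, miR-34b* and miR-340*, with 23.5 to 118 units. Among 72 pairs named by arm, both arms were detected in 13, and the median ratio of 5p over 3p was 1.79. The 3p arm was brighter in 4 of them, miR-142-3p (1521 against 191 units), miR-455-3p (1341 against 60.5), miR-324-3p (382 against 218) and miR-502-3p (86.6 against 30.8).

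**Figure D5:**
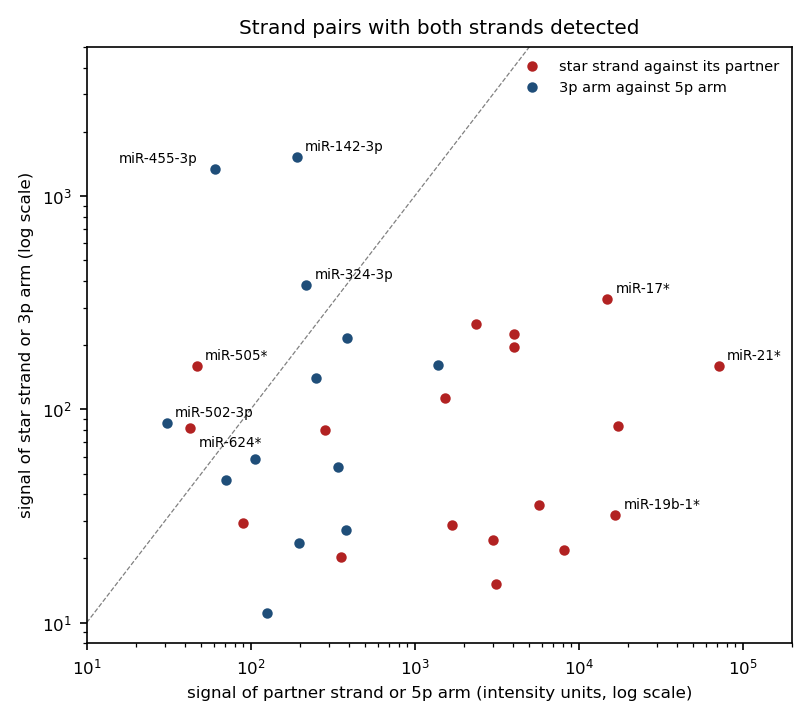
Signal of the star strand against its partner (red, 18 pairs) and of the 3p arm against the 5p arm (blue, 13 pairs) where both were detected on the non-treated array, in intensity units on log scales; the dashed line marks equal signal. Points above the line are 2 star strands and, among the arms, 4 of the 3p arms that were brighter than their partners.

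Argonaute proteins bind the first base of the guide in a pocket that is known to favour U, so the first base was compared. It was U in 75 of 144 matched detected names (52.1%, 95% exact binomial interval 43.6% to 60.5%) and in 202 of 597 matched undetected names (33.8%). The interval covers counting error only and families share sequences, so the names are not independent. The same held among names without a star, with 56.5% of 124 detected and 39.5% of 458 undetected names. Put the other way, 27.1% of names that begin with U were detected, 16.2% of those with C, 15.6% of those with A and 10.0% of those with G. By signal, U stood first in 64.6%, which fell to 49.0% when miR-21 was left out. Without an array of total RNA, the part of Ago2 binding in these differences was not tested.

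Base composition and probe number also differed between detected and undetected names. The median GC content was 45.5% in the detected and 50% in the undetected names, and the part detected was 0 of 27 below 30% GC, 26.7% from 30% to under 40%, 27.0% from 40% to under 50%, 13.7% from 50% to under 60% and 11.7% above. Within the 144 detected names, signal and GC content had a Spearman rho of -0.11, as a description over names that share families and 1 array. Names read by 2 probes were detected in 143 of 483 cases (29.6%), those with 3 in 4 of 56 and those with 4 in 21 of 308 (6.82%). Names numbered miR-1178 or higher, which entered the registry late, were detected in 4 of 129 cases and held 0.397% of the signal, most of it from miR-1202 (684 units, named after its value was seen). The part of these features in detection was not tested.

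The order of the non-treated array was found again on the arrays of transfected cells once names of the transfected duplexes were set aside. Of 167 detected names, 147 were also detected after miR-195 and 118 after miR-497 transfection, where 18.0% and 14.2% of all 851 names were detected with the duplexes included. The same 5 names were brightest on all 3 arrays, 9 of the 10 brightest were shared with either transfected array, and so were 19 of the 20 and 49 of the 50 brightest. Spearman's rho of the signals was 0.984 over 147 names and 0.980 over 118, as a description of arrays that share cell line, slide and probe affinities. The names that were not found again were dim, with at most 43.1 units on the non-treated array for those missing on the miR-195 array and at most 120 units for those missing on the miR-497 array.

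miR-21 ranked first on each array, with 71328 units in non-treated cells and 53636 and 37516 units after miR-195 and miR-497 transfection, or 29.9%, 25.0% and 38.1% of the signal without the duplexes. miR-363 gave 17456, 14146 and 6521 units, miR-19b 16778, 15177 and 6990 units, and miR-17 14978, 14192 and 5708 units in the same order of arrays. miR-192 gave 3003, 3478 and 1352 units and ranked 12, 10 and 9. The arrays were not scaled to each other, so units are given side by side and only detection, ranks and shares are compared between them.

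The detection limit did not follow the summed signal strictly, since a call rested on single probes. The dimmest detected names were miR-582-3p (11.1 units), miR-106b* (15.1) and miR-720 (18.0), each called from 1 probe. The brightest undetected names were miR-548d-5p (37.7 units), miR-548b-5p (34.2) and let-7d* (29.5), each the sum of 4 probes of which none passed. In all, 67 undetected names had a higher signal than the dimmest detected one.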

How the data were processed

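Scanner files of 3 arrays (1 per group, groups taken from the sample labels) were used. Per the file headers, the authors deposited spot intensity on a linear scale from Agilent Feature Extraction 10.7.1.1, background subtracted and surface trend removed within each array, without scaling between arrays; software flags for spots well above background and for outliers stood beside it. The methods state that each sample was run in duplicate, and further arrays were not analysed here. The deposited normalized table and the software total per miRNA were not used, because that total holds carry-over from other names.

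Control and viral rows were left out, as were 1003 of 13616 human spots with an outlier flag (7.37%). Processed intensity was averaged over spots per probe and summed over probes per name. A name was detected if a probe was well above background in more than 50% of its spots. The spot SD of a name is the root of the summed probe variances between spots, not divided by the number of spots. Mature sequences came from RefSeq, 297 names by exact match and 444 through a hand-written table that gives old names their arm. Clusters, markers and other lists were written by hand; names in the text followed a rule (the brightest 20, families, list members, strand pairs and names at the limit of detection), and others are said to be chosen after their values were seen. The members and lists were chosen with earlier results of these data known.

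With 1 array a group no test was run. Alternatives (background by normexp with offset 50 in limma 3.58.1, spot and probe summaries, flags, stricter or looser detection, other totals) were computed in Python 3.11.15 with pandas 2.3.3. The summary was run on simulated spots whose means were built from the detected probes of this array. That run checks the calculation and cannot check the detection rule. The number of arrays limits the precision.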

Additional observations from a re-analysis of the deposited data

How the results depend on the processing

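Across 10 alternatives, miR-21 stayed the brightest name and the same 10 names stayed the 10 brightest in each, but with the brightest probe of a name ranks 2 to 5 became miR-19b, miR-17, miR-363 and miR-20b. With the same setting, names of the miR-106a-363 cluster alone less those of the miR-17-92a cluster alone turned from 3.71 to -0.37 percentage points, and with the mean over probes the difference was 5.55. The count of 168 detected names depended on the rule, with 108 when at least 2 probes had to pass and 346 when positive and significant spots sufficed, and under the latter the share beginning with U was 42.2%. Normexp background, whose offset raises every name, gave 61.9% for the 10 brightest names, 27.6% for the brightest seed family, 2.55% for star strands and 35.2% for the 3 paralogous clusters. Taking the brightest probe of a name gave 65.7% for the 10 brightest and 36.1% for the 3 clusters, and the mean over probes gave 36.0% for the clusters and 0.721% for star strands. Requiring 2 detected probes gave 68.5% for the 10 brightest and 0.818% for star strands. Star strands held 1.18% with positive and significant spots and 1.23% with all human names in the total. The remaining 63 of 80 values moved by less than 1 spot SD, the binomial interval or, for counts, 1.5 times. The clusters' share and difference were added to the alternatives after seeing the data, as were the shares of the 10 brightest names, of which 81 of 100 values moved by less than 1 spot SD. No paired analysis was possible because each group held 1 array and the result comes from no test. Dim names, called from 1 probe, are the least certain, and the spread between cultures is not known from 1 array.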
